A study of Mus musculus with 2 samples.

Results

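Nephric epithelial cells are described here from single-cell RNA sequencing of C57BL/6 mouse embryos, with 1 library from embryonic stage E11.5 and 1 from E10.5. Either library was a pool of the dorsal aorta, the tissue around it and the fetal liver of embryos, and the series concerned precursors of blood stem cells, so kidney precursors were present as part of the tissue taken along. The cells were chosen on their own transcripts, counted as unique molecular identifiers (UMIs): a barcode had a minimum of 2000 UMIs and of 500 genes and no more than 10% mitochondrial UMIs, at least 2 UMIs of Pax2 and Pax8 together, at least 1 of Epcam, none of Nr5a1, at most 2 of Hnf4a and fewer than 20 of Afp. Of 16572 barcodes that passed the filters, 327 met this rule, 85 of 8907 at E11.5 and 242 of 7665 at E10.5. Levels of the genes in the rule are therefore descriptions and not findings.

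In the mouse embryo the nephric duct is an epithelial tube that grows tailwards along the intermediate mesoderm, and neighbouring mesenchyme condenses into nephric tubules that join it. The transcription factors Pax2, Pax8 and Lhx1 are needed to form this epithelium, Gata3 and the receptor Ret act in the duct, and Wnt9b from the duct signals to mesenchyme that then expresses Wnt4 as tubules form. The tubules of the mesonephros at these stages are transient, while the duct persists and gives rise to the ureteric bud and, in males, to the epididymis and vas deferens.

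The libraries held 12289 barcodes with 159619785 UMIs at E11.5 and 10996 barcodes with 151474708 UMIs at E10.5. The nephric cells had a median of 17429 UMIs (6636 to 133902) and 4809 genes at E11.5, and 21009 UMIs (2291 to 178121) and 5116.5 genes at E10.5. Their median mitochondrial share was 4.02% at E11.5 and 3.83% at E10.5. No nephric barcode was shared between the libraries as a nephric cell in both, although 37 barcodes of all cells occurred in both. There was no replicate, so no test was possible, stage and library cannot be told apart, and each 95% interval covers counting error only.

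Nephric epithelial cells made up 0.954% of cells at E11.5 (exact binomial 95% CI 0.763 to 1.18) and 3.16% at E10.5 (2.78 to 3.57), a share 3.31-fold lower at E11.5 (2.57 to 4.29). How much liver, aorta and surrounding tissue entered each library is not given in the sources used here, and this share moves with it. The cells near the edge of the rule differed from the rest. At E11.5, the 25 cells with a single Epcam UMI had no UMI of the tight junction gene Cldn7, while the 44 cells with at least 4 Pax2 and Pax8 UMIs and at least 2 of Epcam had 377 counts per 1000000 (CPM). At E10.5, the 40 cells with a single Epcam UMI had 24.3 CPM of Cldn7, and the 168 cells well inside the rule had 285 CPM. Just outside, the 107 cells at E11.5 and 149 cells at E10.5 that failed only for want of an Epcam UMI had Lhx1 at 57.0 and 153 CPM, and at E11.5 Cldn7 at 2.71 CPM.

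Lhx1, a LIM homeobox factor that was not in the rule, was detected in most of the cells. It had a UMI in 68.2% of nephric cells at E11.5 (median 2 UMIs, highest 32) and in 87.2% at E10.5 (median 4, highest 47). After every cell was thinned to 5000 UMIs, which left out 0 cells at E11.5 and 5 at E10.5, the shares were 41.2% and 54.9%. In endothelial cells of the same libraries, defined by at least 2 UMIs of Cdh5 and with median depths of 24599 and 23837 UMIs, Lhx1 had a UMI in 0% and 2.35% of cells. The E11.5 value is 0 of 249 cells, with an exact upper bound of 1.47%. By level Lhx1 was at 134 CPM (119 to 151) at E11.5 and 216 CPM (205 to 227) at E10.5, against 1.49 and 6.12 CPM in all other cells.

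The genes that stood highest over all other cells of both libraries included tight junction genes and kidney transcription factors. Of 12006 genes with at least 20 UMIs, 813 (6.77%) were at least 2-fold higher in nephric cells than in the other cells of both libraries, with 11% so at E11.5 and 9.07% at E10.5. By contrast 23 of 27 genes of the junction and keratin list were so, and 13 of 17 of the tubule list and 11 of 16 measured genes of the duct list. Since the cells were chosen for Epcam, Pax2 and Pax8, this is a description of them. The tight junction gene Cldn8 was at 106 CPM in nephric cells at E11.5 and 63.2 CPM at E10.5, against 0.314 and 0.588 CPM in the other cells. Cldn7, a claudin of the same kind, was at 249 and 244 CPM, against 3.06 and 4.94 CPM. Crb3, a polarity protein of the apical membrane, was at 102 and 87.1 CPM, against 1.84 and 1.78 CPM. All 3 genes were higher in nephric cells at each stage.

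Among regulators, the homeobox gene Pou3f3, which acts in nephron patterning, was at 67.6 CPM in nephric cells at E11.5 and 81.7 CPM at E10.5, against 0.754 and 2.86 CPM in the other cells. Sim1, a transcription factor of the mesonephros, was at 59.3 and 125 CPM, against 0.509 and 4.18 CPM. Emx2, a homeobox gene needed for the urogenital system, was at 253 and 207 CPM, against 41.4 and 17.2 CPM. The 20 genes that ranked highest were Cldn8, Plet1, Mal, 1700011H14Rik, Cldn7, Crb3, Lhx1, Cldn6, Rprm, Sim1, Pou3f3, Wfdc2, Clec18a, Rmst, Calb1, Sept4, Emid1, Sostdc1, Grb7 and Spint2, and each was between 8.03-fold and 337-fold higher than in the other cells of its library. The plot of these genes shows the gap.

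**Figure D1:**
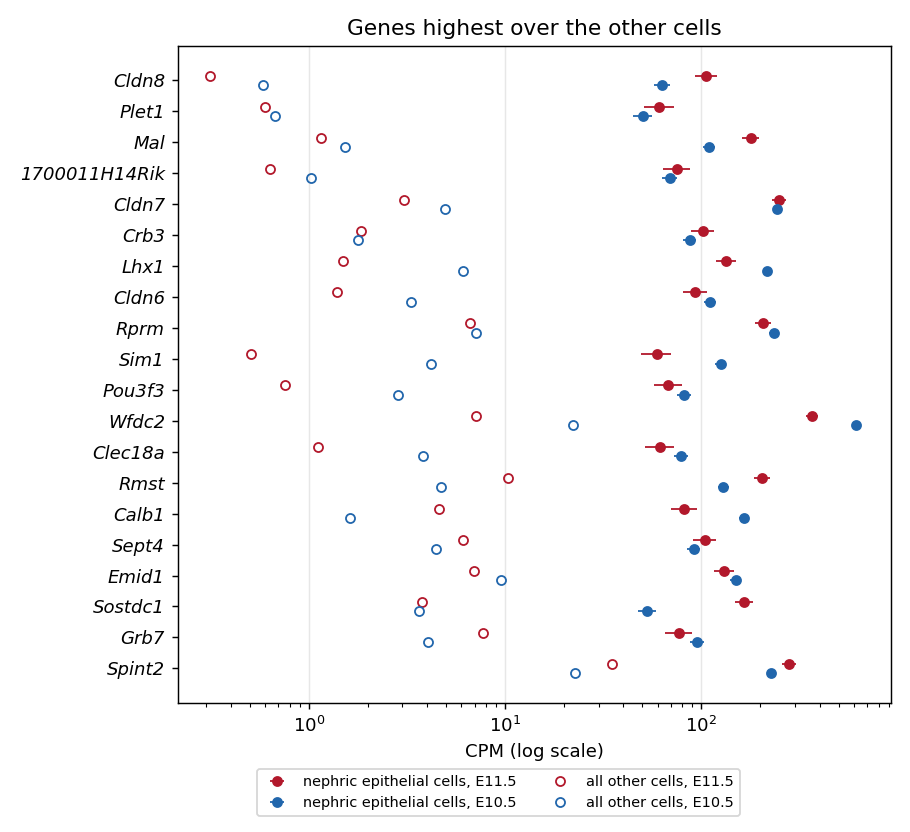
Level of the 20 genes that stood highest over all other cells, in CPM on a log axis. Filled points are nephric epithelial cells (85 at E11.5, 242 at E10.5) with exact Poisson 95% intervals and open points are all other cells; every filled point lies to the right of both open points of its gene.

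The 2 neighbours of the rule had lower levels of most of these 20 genes. In both libraries, 20 of 20 were at least 2-fold higher in nephric cells than in cells with Epcam alone, and 16 of 20 than in cells with Pax2 or Pax8 alone, where Lhx1, Clec18a, Rmst and Emid1 were the exceptions. The 20 genes were picked from these same data as highest over all other cells, which include both neighbours. These counts are therefore descriptions, and the share of all genes past 2-fold over either neighbour was not computed. Cells with Epcam but no Pax2 or Pax8 UMI numbered 607 at E11.5 and 516 at E10.5, and had 7.9 and 29.6 CPM of Cldn7 and 3.1 and 2.4 CPM of Lhx1. They included liver cells, with Alb at 1177 and 144 CPM. Cells with at least 2 Pax2 and Pax8 UMIs but none of Epcam numbered 150 and 167, with Wnt4 at 846 and 535 CPM, Wt1 at 370 and 351 CPM and Cldn7 at 1.9 and 12.8 CPM. Wnt4 and Wt1, a factor of the urogenital mesenchyme and mesothelium, were thus higher in these cells than in nephric cells, where Wnt4 was at 284 and 201 CPM and Wt1 at 139 and 77.5 CPM.

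The cells fell into 9 clusters by Leiden clustering without the genes of the rule. A cluster was named from the duct or the tubule list where at least 3 of its markers stood 2-fold above the other clusters and fewer than 3 did of the other of these lists and of each of the endothelium, mesenchyme, germ cell, neural, blood, hepatoblast and mesothelium lists. Podocyte markers, of a cell type of the nephron, were not part of this rule. Genes that define a cluster are descriptions, since the same genes formed it. Duct-like clusters held 13 cells at E11.5 (15.3%, 8.40 to 24.7) and 91 at E10.5 (37.6%, 31.5 to 44.0). Tubule-like clusters held 17 of the cells of E11.5 (20%), and 64 of those of E10.5 (26.4%). A cluster with Fgf8 at its head held 3 and 47 cells, and a cluster of mixed markers held 11 and 40 cells. The remaining 2 clusters, led by Runx1 and Notum among others, held 41 of 85 cells at E11.5 (48.2%, 37.3 to 59.3) and 0 of 242 at E10.5, with an exact upper bound of 1.51%. Cluster sizes rest on the same genes that differ between stages, so they were not read as shares of cell types, and in a cluster of 1 library the library and a cell type cannot be told apart. The larger Runx1 and Notum cluster, of 29 cells, stayed whole at resolution 1.0, with 15 neighbours and with E11.5 clustered alone, whereas the smaller, of 12 cells, joined clusters of 23 or 68 cells. The larger tubule-like cluster and the Fgf8 cluster were less stable: at resolution 1.0 their largest pieces held 34 of 61 and 29 of 50 cells, and with E11.5 alone both tubule-like clusters and the Fgf8 cluster formed a single cluster of 22 cells.

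**Figure D2:**
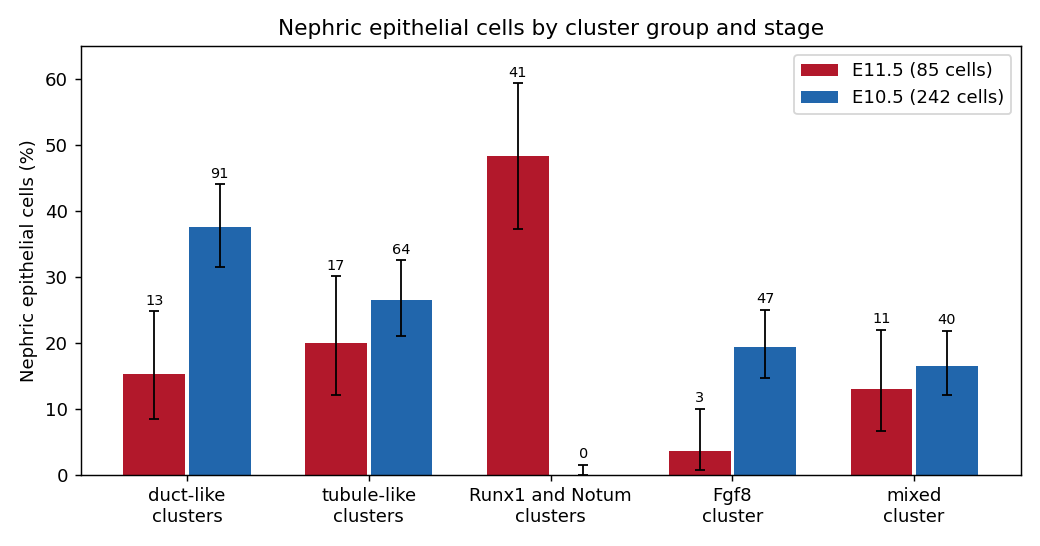
Share of nephric epithelial cells in each group of clusters, in percent, at E11.5 (left bar) and E10.5 (right bar), with exact binomial 95% intervals and the number of cells above each bar. The Runx1 and Notum clusters hold 41 cells at E11.5 and 0 at E10.5.

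The duct-like cells carried the known genes of the nephric duct. There were 3 such clusters: 1 with 11 cells at E11.5 and 0 at E10.5, 1 with 1 and 49 cells, and 1 with 1 and 42 cells. In this order, Gata3 was at 567, 528 and 416 CPM, and Calb1, a calcium-binding protein of the duct and ureteric bud, at 453, 320 and 437 CPM. Wnt9b was at 318, 126 and 78.0 CPM. In the tubule-like clusters Gata3 was at 3.69 and 6.06 CPM, Calb1 was not detected and Wnt9b was at 1.23 and 2.02 CPM. Gata3, Calb1 and Wnt9b were thus high in all 3 duct-like clusters and near 0 in both tubule-like clusters. Ret was low everywhere, at 33.5, 24.97 and 19.5 CPM in the duct-like clusters. The top gene of the E11.5 duct-like cluster, the platelet gene Pf4, came from a single cell with 607 of its 640 UMIs at that stage.

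Tubule-like cells formed 2 clusters. The larger, with 8 cells at E11.5 and 53 at E10.5, had Wnt4 at 797 CPM, the transcription factors Wt1 at 327 CPM and Foxc2 at 216 CPM, and Osr2 at 132 CPM. It also had 3 of 11 podocyte markers raised, Wt1, Foxc2 and Tcf21, and the podocyte list summed to 898 CPM there against 311 CPM in the other nephric cells. The smaller, with 9 and 11 cells, had Wnt4 at 370 CPM, Wt1 at 26.3 CPM and no Foxc2. It had Irx1 and Irx2, homeobox genes of the middle nephron segment, at 216 and 76.8 CPM, the Notch ligand Dll1 at 88.9 CPM, and Slc12a1, the salt transporter of the loop of Henle, at 117 CPM. Irx1 and Slc12a1 rested on few cells: Irx1 on 5 of the 20 cells, and Slc12a1 on 3, the highest of which had 26 UMIs.

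The Fgf8 cluster carried markers of both lists. It had Fgf8, a growth factor of forming nephrons, at 238 CPM, the FGF target genes Etv4 at 102 and Spry1 at 261 CPM, Sim1 at 289 CPM, Pou3f3 at 179 CPM, Sall1 at 147 CPM and Lhx1 at 408 CPM, with Wnt4 at 120 CPM and Gata3 at 79.1 CPM. Fgf8 was found in 42 of its 50 cells. Shh, also among its leading genes, came from 2 cells and is no mark of the group. The cluster of mixed markers had 7 of 8 endothelial and 8 of 10 mesenchymal markers raised and the highest depth, with a median of 36491 UMIs. Of the 31 nephric cells at E10.5 that ranked in the top 8% by Scrublet doublet score, 27 were in it, as were 5 of 12 at E11.5. Whether these cells are doublets was not tested further.

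Low Gata3 goes against a duct label for the 41 cells of the Runx1 and Notum clusters, while the values do not settle a tubule label. These cells are not given a cell type name. They had Pax2 at 205 CPM and Pax8 at 227 CPM, and Lhx1 in 26 of 41 cells, but Epcam at a median of 2 UMIs (highest 7), against 14 (highest 101) in the other 44 nephric cells of E11.5. Pax2, Pax8 and Epcam are genes of the rule, so these levels are descriptions. Cdh1, the epithelial cadherin, was found in 0 of 41 cells, with an upper interval bound of 5.99 CPM, against 73.7 CPM in the other cells of E11.5. Cdh2, the cadherin of mesenchyme and of early tubules, was at 318 CPM (275 to 366), against 33.98 CPM (25.4 to 44.4). Cldn7 was at 3.2 CPM against 346 CPM, and Gata3 at 1.6 CPM against 187 CPM. The other 44 cells include the 13 duct-like cells, and the tubule-like clusters were also low in Gata3. Wnt4 was at 237 CPM against 302 CPM and Emx2 at 344 CPM against 217 CPM. Over the whole junction and keratin list, the 41 cells had a median of 12.5 UMIs per 10000, against 64.1 in duct-like and 11.6 in tubule-like cells of E11.5, so on this list they lay near the tubule-like cells. By anchor genes 31 of the 41 fell in the tubule class.

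Lists of other cell types were also higher in these clusters than in the other nephric cells. The hepatoblast list summed to 712 CPM in the larger cluster against 211 CPM, and to 724 CPM in the smaller against 222 CPM, with Dlk1 raised in both. The mesenchyme list summed to 602 against 263 CPM and to 412 against 275 CPM. The mesothelium list summed to 393 against 160 CPM in the larger cluster. Their part in the result was not tested.

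Some genes of the Wnt list were raised in these 41 cells, 7 of 19 in the larger cluster and 5 of 19 in the smaller, while the list as a whole was not. The share of all genes raised in these clusters was not computed, so the counts are not read as a result about the list. The list summed to 1356 CPM in the larger cluster against 1276 CPM in the other nephric cells, and to 1174 against 1282 CPM in the smaller. Notum, a secreted enzyme that inactivates Wnt proteins, was at 177 CPM (145 to 214) with a UMI in 33 of 41 cells, against 11.54 CPM in the other nephric cells of E11.5 and 2.2 CPM in all those of E10.5. Nkd1, an inhibitor of the pathway, was at 218 CPM in 37 cells, against 34.6 and 17.6 CPM. Lef1, a factor that carries the Wnt signal, was at 188 CPM, against 50.01 and 51.6 CPM, and the receptor Lgr5 at 77.9 CPM, against 9.0 and 16.9 CPM. The ligand Wnt7a, which acts in the Müllerian duct, was at 77.9 CPM in 20 cells, against 0 CPM and 0.7 CPM. Dach2, of the same list of genital duct genes, was at 135 CPM in 28 cells, against 14.7 and 3.8 CPM. Amhr2, the receptor of anti-Müllerian hormone, was at 22.7 CPM, but 10 of its 15 UMIs at E11.5 lay in a single cell. Hoxa10 and Hoxa11 were not detected in the 41 cells. Wnt7a, Dach2 and Notum were each highest in these clusters, and Wnt7a had a UMI in 0 of the other 44 cells of E11.5 and in 5 of 242 cells of E10.5.

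Runx1, best known as a regulator of blood formation, was at 180 CPM (148 to 217) in 25 of the 41 cells, with at most 11 UMIs in a cell, against 10.3 CPM in the other nephric cells of E11.5 and 3.1 CPM in those of E10.5. Runx2 was at 115 CPM in 31 cells, against 8.3 and 0.4 CPM. Sema6a, a guidance molecule, was at 317 CPM in 38 cells, against 26.3 and 16.9 CPM, and Egfl6, a secreted protein of basement membranes, at 232 CPM, against 27.6 and 7.0 CPM. C1qb, a macrophage gene among the leading genes, came from 1 cell with 50 UMIs, and Kctd14 had 68 of its UMIs in 1 cell. Genes of the response to dissociation were also high, at a sum of 4986 and 6278 CPM in the 2 clusters, against 2673 and 2695 CPM in the other nephric cells, and their part in the result was not tested.

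Across all nephric cells, 1030 of 12006 genes (8.58%) were at least 2-fold higher at E11.5 and 436 (3.63%) at least 2-fold lower, with a median log2 ratio over all genes of 0.11. The 12 genes that ranked first as higher were Dppa5a, Dppa3, Rhox5, Tmem213, Fxyd2, Notum, C130073E24Rik, Runx1, Irx1, Myof, Igfbp2 and Egfl6. Dppa3, Dppa5a and Rhox5 are genes of germ cells, and their UMIs lay almost all in 2 cells of the mixed cluster: Dppa3 had 85 and 37 UMIs in these and none in any other cell. Without the mixed cluster Dppa5a and Rhox5 each had a log2 ratio of -0.09, which rests on few UMIs. At E10.5 Dppa5a had 1 UMI and Rhox5 6 UMIs in all nephric cells. The value of Dppa5a rests on 0 UMIs set to 3 counts, so its sign is not read. Tmem213 had 119 of its 156 UMIs in 1 cell. Notum was found in 42 of 85 cells at E11.5, 33 of them in the Runx1 and Notum clusters, at 58.4 CPM (48.7 to 69.5), against 2.18 CPM (1.22 to 3.60) and 14 of 242 cells at E10.5.

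Igfbp2, a binding protein of insulin-like growth factors, was at 452 CPM (424 to 481) in nephric cells at E11.5 and 43.8 CPM (39.0 to 49.1) at E10.5, a log2 ratio of 3.37 (3.18 to 3.56), against 0.55 in the other cells. It was detected in 77.6% and 52.1% of the nephric cells, and 13.3% of its UMIs at E11.5 lay in the cell with the most. Fxyd2, a subunit of the sodium pump of the kidney, was at 155 and 5.10 CPM, a log2 ratio of 4.93 (4.42 to 5.47), against 1.65 in the other cells. At E11.5 it was found in 23 nephric cells, and the highest of them held 97 and 77 of its 337 UMIs. Egfl6 had a log2 ratio of 3.61 in nephric cells and 3.69 in the other cells, so the other cells showed a ratio of about the same size.

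The genes that ranked first as lower at E11.5 were Amigo2, Sfrp2, Ripply3, Fgf8, Fdps, Ccnd1, Capn6, Trim71, Dkk1, Msmo1, Hist1h2ap and Hey1. Sfrp2, a secreted Wnt inhibitor, was at 147 CPM (132 to 165) at E11.5 and 627 CPM (608 to 646) at E10.5, a log2 ratio of -2.09 (-2.26 to -1.92), while the other cells had 0.92. Ccnd1, the cyclin of G1 phase, was at 320 and 900 CPM, a log2 ratio of -1.49 (-1.60 to -1.38), against 0.41 in the other cells. Dkk1, another secreted Wnt inhibitor, was at 55.6 and 155 CPM, against 7.07 and 4.80 CPM in the other cells. Fdps and Msmo1, enzymes of sterol synthesis, had log2 ratios of -1.74 and -1.41, and the other cells -0.92 and -0.74. Trim71, a developmental timing gene, had -1.74, and the other cells -1.23. Sfrp2, Ccnd1 and Dkk1 were lower in nephric cells while they were higher in the other cells. All 3 were raised in the Fgf8 cluster, which held 3 of 85 nephric cells at E11.5 and 47 of 242 at E10.5. Sfrp2 and Ccnd1 were also raised in the larger tubule-like cluster, and Dkk1 in the smaller. The Runx1 and Notum clusters held 41 and 0 cells. Without them, 18 of 84 recomputed results moved past counting error and 0 reversed. The part of the Fgf8 cluster and of the rest of this make-up of the cells in the ratios was not tested.

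Within the duct-like clusters, the 13 cells at E11.5 lay in other clusters than the 91 cells at E10.5: 11 of the 13 formed a cluster with no cell of E10.5, and the 91 were split into clusters of 49 and 42 with 1 cell of E11.5 each. A difference between stages and one between clusters therefore cannot be told apart here. The cells at E11.5 had more of the junction, keratin and basement membrane genes than those at E10.5. Of 9848 measured genes, 11.6% were at least 2-fold higher and 7.79% at least 2-fold lower, with a median log2 ratio of 0.12. Of 25 measured junction and keratin genes, 11 were at least 2-fold higher and 1 lower, with a median of 0.90. Krt7, a keratin of simple ducts, was at 313 CPM (267 to 366) at E11.5 and 15.6 CPM (10.96 to 21.4) at E10.5, 20.1-fold higher. Cldn3 was at 300 CPM and 20.2 CPM, 14.9-fold higher, and Cldn4 at 407 CPM and 68.5 CPM, 5.94-fold higher. Cdh16, the kidney cadherin, was at 586 CPM and 98.4 CPM, 5.96-fold higher, and Krt18 at 1110 CPM and 391 CPM. All 13 cells at E11.5 had a UMI of Cldn3 and 12 had one of Krt7, against 35 and 22 of the 91 cells at E10.5. Per cell, the junction and keratin list had a median of 67.4 UMIs per 10000 in the 11 cells of the E11.5 cluster, against 27.1 in the 49 and 26.0 in the 42 cells of E10.5, so both clusters of E10.5 lay below it.

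The basement membrane list had 6 of 13 genes at least 2-fold higher and none lower, with a median of 0.97, against 11.6% and 7.79% of all genes measured. Its laminin chain Lama5 was at 158 CPM at E11.5 and 19.8 CPM at E10.5, and the integrin ligand Npnt at 537 and 114 CPM. Of 9 solute transport genes 6 were at least 2-fold higher, among them the bicarbonate transporter Slc4a4 at 70.1 and 8.41 CPM and the sodium channel subunit Scnn1b at 79.8 and 21.03 CPM. Of 12 cilium and cystic disease genes 4 were at least 2-fold higher, among them Pkhd1, a gene of cystic kidney disease, at 74.0 CPM (52.4 to 102) and 20.2 CPM (14.9 to 26.8), and Glis2 at 187 and 29.4 CPM. Of the guidance list, 5 of 9 were higher, with L1cam at 97.4 and 15.1 CPM. Dhrs3 and Aldh1a3, enzymes of retinoid metabolism, were at 93.5 and 37.0 CPM at E11.5, against 4.63 and 0.841 CPM at E10.5. Igfbp2 was at 1297 and 31.1 CPM, 41.7-fold higher. By contrast the duct regulators Gata3 and Emx2 had log2 ratios of 0.28 and 0.22.

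**Figure D3:**
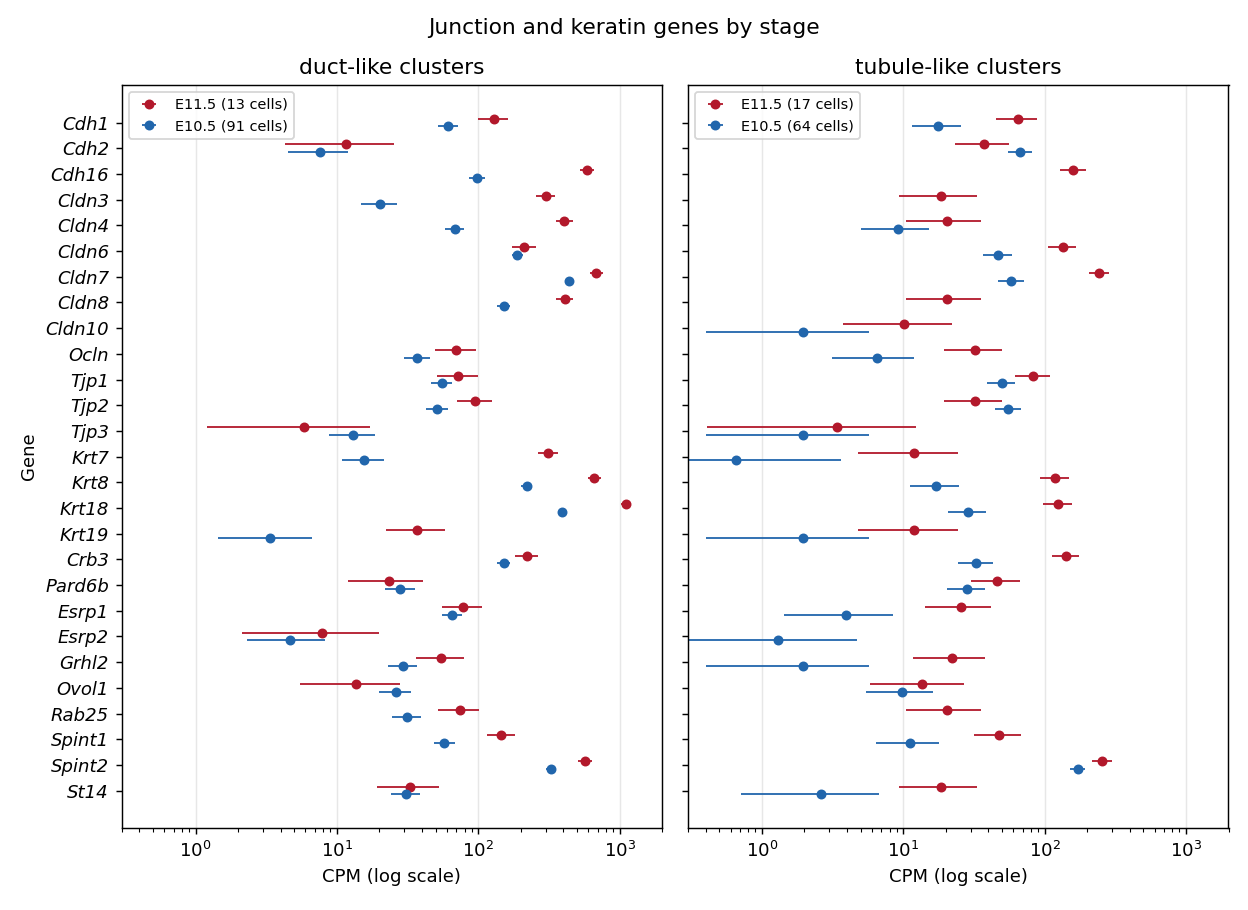
Level of the junction and keratin genes in the duct-like (left) and tubule-like (right) clusters at E11.5 and E10.5, in CPM on a log axis with exact Poisson 95% intervals; a gene with no UMI at a stage has no point there. In the duct-like clusters Krt7, Cldn3, Cldn4 and Cdh16 are far apart between stages, whereas Cldn6, Esrp1 and St14 lie close together.

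Pooled over the duct-like clusters, cell cycle genes were lower at E11.5. All 15 of 15 genes of the G2 and M phase list were at least 2-fold lower, with a median log2 ratio of -2.57, and 13 of 16 S phase genes, with a median of -1.74. Over all genes measured in these clusters, 7.79% were at least 2-fold lower. Ube2c, a ubiquitin enzyme of mitosis, was at 93.5 CPM (68.9 to 124) at E11.5 and 746 CPM (712 to 782) at E10.5, 7.99-fold lower. Plk1, a mitotic kinase, was at 7.79 and 133 CPM, and Top2a at 101 and 476 CPM. Per cell, the 15 genes made up 2.27 to 57.2 UMIs per 10000 at E11.5 (median 4.51) and 1.86 to 128 at E10.5 (median 28.6), so the ranges overlapped. By cluster the medians were 3.88 in the 11 cells of the E11.5 cluster, against 5.65 in the 49 cells and 66.1 in the 42 cells of the E10.5 clusters. The cluster of 42 cells stood far above the rest, while the 49 other cells of E10.5 lay near those of E11.5. S phase genes had medians of 5.64 against 12.6 and 19.1 in the same clusters. Ccnd1 was at 132 and 501 CPM. In the tubule-like clusters the G2 and M phase list had a pooled median log2 ratio of 0.05, with a per-cell median of 71.2 at E11.5 against 42.5 at E10.5 in the larger cluster and 9.56 against 19.8 in the smaller, and the S phase list one of -1.005 with 8 of 16 genes at least 2-fold lower. The difference between duct-like and tubule-like cells in this change was not tested, since each stage had 1 library.

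**Figure D4:**
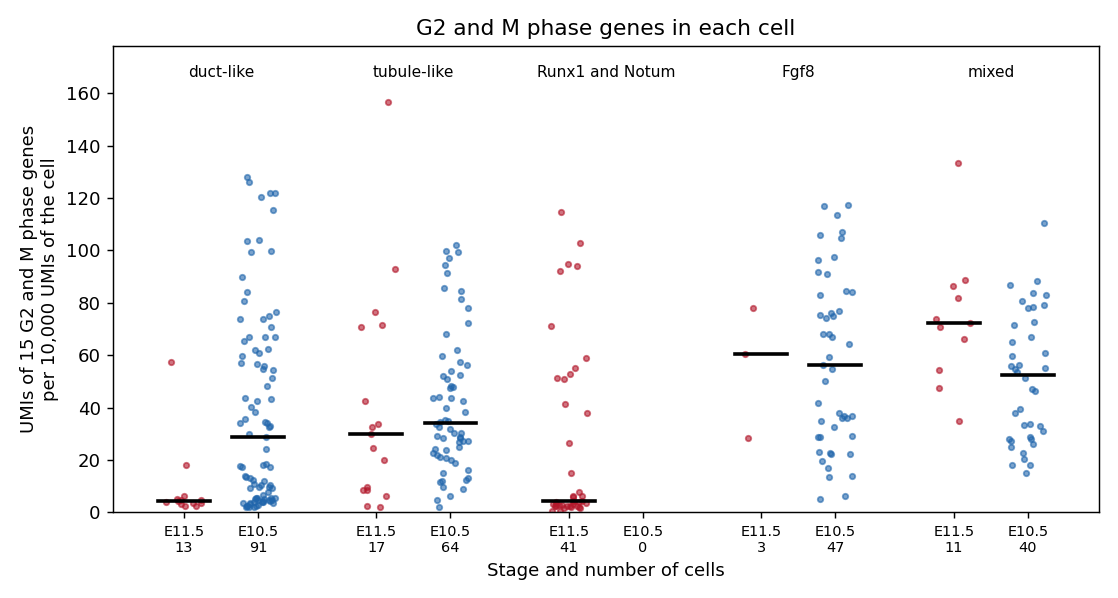
UMIs of the 15 G2 and M phase genes per 10000 UMIs of a cell (haemoglobin and mitochondrial genes left out), 1 point per cell, with the median as a bar. The duct-like cells of E11.5 lie near the bottom apart from 1 cell at 57.2, with a median of 4.51; those of E10.5 (median 28.6) join a cluster of 49 cells with a median of 5.65 and a cluster of 42 cells with a median of 66.1; the Runx1 and Notum cells also have a low median, 4.31, with some cells up to 114.

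The duct-like comparison rests on few cells at E11.5. The deepest of the 13 held 24.7% of their UMIs, and without it the medians were -2.21 for the G2 and M phase list, -1.48 for the S phase list and 0.88 for the junction list. The duct-like cells had a median mitochondrial share of 5.68% (3.90 to 7.81) at E11.5 and 4.22% (2.39 to 9.56) at E10.5, whose part in the result was not tested. Of 4 measured endothelial genes, 3 were at least 2-fold higher in the duct-like cells at E11.5 (median log2 ratio 2.39), against 11.6% of all genes measured there. Cdh5 was found in 1 of 13 and 2 of 91 cells and Kdr in 3 of 13 and 5 of 91 cells. The part of these genes in the result was not tested. In a second definition, by at least 2 UMIs of the anchor genes Gata3, Ret and Wnt9b and none of Wnt4, Osr2 and Cdh6, the 8 cells at E11.5 and 90 at E10.5 had a median of -1.22 for the G2 and M phase list and -1.18 for the S phase list. Krt7 was at 237 and 12.4 CPM in these cells and Cldn3 at 255 and 17.2 CPM.

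Some genes of RET and FGF signalling were lower at E11.5. In the duct-like clusters 6 of 12 genes of the RET list were at least 2-fold lower and none higher, with a median log2 ratio of -0.83. Over all genes measured in these clusters, 7.79% were at least 2-fold lower and 11.6% higher. The duct-like cells of the 2 stages lay in different clusters, so stage and cluster cannot be told apart here. Ret itself was at 23.4 and 22.7 CPM, while the feedback inhibitor Spry1 was at 42.8 CPM (26.8 to 64.9) at E11.5 and 94.6 CPM (82.7 to 108) at E10.5, and Sox9 at 48.7 and 108 CPM. Without the deepest cell the median was -0.58. In the tubule-like clusters 6 of 10 FGF pathway genes were at least 2-fold lower, with a median of -1.28, against 6.85% of the 8652 genes measured there and a median over all genes of 0.10. Fgf8 was at 16.9 CPM (8.13 to 31.2) and 73.1 CPM (60.2 to 88.0).

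The tubule-like clusters also had genes of Notch signalling at lower levels and genes of nephron segments at higher levels at E11.5. Of 11 Notch pathway genes, 5 were at least 2-fold lower and none higher, with a median of -0.89, against 6.85% lower over all genes measured. Hey1, a target of the pathway, was at 28.8 CPM (16.8 to 46.1) at E11.5 and 167 CPM (147 to 188) at E10.5, and the feedback gene Nrarp at 23.7 and 80.3 CPM. The ligand Jag1 was at 144 and 195 CPM. Of 5 proximal tubule genes 4 were at least 2-fold higher, against 11.6% of all genes measured. Lrp2, the endocytic receptor megalin, was at 57.6 CPM (39.9 to 80.5), in 6 of 17 cells, and 1.31 CPM, in 2 of 64 cells. Anpep, a brush border peptidase, was at 44.1 and 5.23 CPM. Of 17 junction genes 11 were at least 2-fold higher and none lower, with Cldn7 at 244 and 58.1 CPM, Krt8 at 119 and 17.0 CPM, and Cdh16 at 159 CPM against no UMI, at least 81.3-fold higher. Atp1b1, a subunit of the sodium pump, was at 487 and 75.8 CPM. Lhx1 was at 93.2 and 360 CPM and Ccnd1 at 334 and 1670 CPM, while Wnt4 was at 698 and 697 CPM. The tubule-like cells came from the larger and the smaller cluster in unlike proportions, with 8 from the larger and 9 from the smaller at E11.5, against 53 and 11 at E10.5, and the part of this in the values was not tested. Per cell, the junction and keratin list had a median of 24.2 UMIs per 10000 at E11.5 against 10.99 at E10.5 in the smaller cluster, and 6.64 against 4.66 in the larger.

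The anchor classes set duct against tubule without clustering. Beyond the anchors, the genes that ranked first as higher in the duct class included Calb1, Rprm, Cldn8, Amigo2, Mal2, Kitl, Mfap3l, Cdh5 and Angpt1, and those higher in the tubule class were Rspo1, Wt1, Pcp4, Dll1, C1qb, Akap12, Plat, Maf, Cntfr and Zbtb7c. Calb1 was at 504 CPM in the duct class of E11.5 and 353 CPM in that of E10.5, against 0.849 CPM and no UMI in the tubule classes. Kitl, the ligand of the receptor Kit, was at 279 and 193 CPM, against 18.7 and 4.16 CPM. Angpt1, a ligand of the endothelial receptor Tek, was at 146 and 62.2 CPM, against 0.849 and 4.16 CPM. Rspo1, a secreted enhancer of Wnt signalling, was at 0 and 1.76 CPM in the duct classes, against 43.3 and 134 CPM in the tubule classes. Cdh5 came from few cells and had a log2 ratio of -1.23 without the cells of the 8% highest Scrublet scores, and C1qb came from 1 cell. At E11.5 the tubule class held 54 cells, of which 31 belonged to the Runx1 and Notum clusters, which express Wnt4 too.

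Of 27 measured Hox genes 1 was at least 2-fold higher at E11.5 and 3 lower, against 8.58% and 3.63% of all genes. The other 23 lay within 2-fold, and the median log2 ratio of the list was -0.18. In nephric cells 11 of the 27 were at least 2-fold higher than in the other cells of both libraries, against 6.77% of all genes. Hoxd1 was at 17.0 CPM in nephric cells at E11.5 and 19.2 CPM at E10.5, against 0.3 and 0.9 CPM in the other cells. Hoxb6 was at 86.0 and 106 CPM, against 11.2 and 28.7 CPM, and Hoxd8 at 67.6 and 102 CPM, against 12.7 and 12.6 CPM. Hoxa10, the gene higher at E11.5, was at 17.5 and 3.6 CPM.

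Markers of liver, mesenchyme, endothelium, blood and neural cells summed to less in nephric cells than in the other cells, while those of podocytes, nephrogenic mesenchyme and, at E11.5, mesothelium and germ cells did not. The hepatoblast list summed to 370 CPM in nephric cells at E11.5 and 191 CPM at E10.5, against 4984 and 1412 CPM in the other cells. This list includes Afp and Hnf4a, which the rule limits, so its gap is in part set by the choice of cells. Alb, which is not in the rule, was at 6.9 and 0.7 CPM against 521 and 16.5 CPM. The mesenchyme list summed to 309 and 269 CPM, against 1719 and 1202 CPM, and the endothelium list to 110 and 216 CPM, against 272 and 322 CPM. The mesothelium list summed to 257 and 143 CPM, against 217 and 155 CPM, the podocyte list to 490 and 393 CPM, against 466 and 391 CPM, and the nephrogenic mesenchyme list to 191 and 347 CPM, against 118 and 128 CPM. The germ cell list summed to 169 and 15.1 CPM, against 39.4 CPM at each stage. Of 8 endothelial genes 4 were at least 2-fold lower at E11.5, against 3.63% of all genes, with a median log2 ratio of -1.22, and without the mixed cluster the median was 1.59. The nephrogenic mesenchyme list had 6 of 9 genes at least 2-fold lower at E11.5, against the same 3.63%, and none higher, among them Osr1 at 2.8 and 10.3 CPM and Uncx at 51.9 and 129.5 CPM.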

How the data were processed

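Per the labels, single-cell libraries were made with the version 3.1 10x 3 prime kit from C57BL/6 embryos, 1 library at each stage. Per the submitters' processing notes, the authors used Cell Ranger 5.0.0 and mm10 (GRCm38). The deposited values were raw UMI counts of 31053 genes per barcode, with no normalization. Barcode and gene names were deposited as lists beside the counts and carry no score or level.

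UMIs were summed over the nephric cells of a library and divided by the sum over all genes, leaving out haemoglobin and mitochondrial ones, to give CPM. Ratios have E11.5 on top, on the log2 scale. CPM values have exact Poisson, shares exact Clopper-Pearson and ratios exact conditional intervals at 95%. Genes were measured with at least 20 UMIs over both groups compared, and a difference was counted from 2-fold. In a fold, 0 UMIs were set to 3 counts, the limit they allow. No p-value is given, because the cells of a library do not replicate a stage.

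Named genes between stages reached 50 CPM in either library and 50 UMIs in all and, where higher, at least the level of the other cells. They were ranked by the interval bound nearest to 0, 12 each way. Against other cells the first 20 with at least 50 CPM in both libraries were named, and between anchor classes the first 10 each way. Genes of the lists also serve as examples. Some genes picked by these criteria are not reported here. The members, the 34 lists and this rule were chosen with earlier results of these data known. The clusters, their grouping and the Runx1 and Notum comparison were chosen after the values were seen.

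Clustering used scanpy 1.11.5 and leidenalg 0.10.2 with 2000 variable genes, 20 principal components, 10 neighbours and resolution 0.5, without the genes of the rule, haemoglobin, mitochondrial, Xist and Y-linked genes. A cluster was named when at least 3 markers were 2-fold above the other nephric cells with a pseudocount of 20 CPM. Doublets were kept. The automatic threshold of Scrublet was not used, and the 8% highest scores were left out as an alternative. Intervals of the ratios were tested on simulated Poisson counts with known ratios. Such counts hold no spread between cells, so the simulation bears on counting error only. Python 3.11.15, numpy 2.4.6, scipy 1.17.1, pandas 2.3.3, anndata 0.12.19, scikit-learn 1.9.0, python-igraph 0.11.9 and matplotlib 3.10.9 were used.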

Additional observations from a re-analysis of the deposited data

How the results depend on the processing

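Of the 85 results recomputed with a minimum of 5000 UMIs and the 79 with CPM over all genes, all kept their direction and size within counting error. The minimum kept every nephric cell of E11.5, where the lowest had 6636 UMIs, so it could change little. With the mean over cells 17 of 79 moved past this error. With at least 4 Pax2 and Pax8 UMIs and 2 of Epcam, 14 of 81 moved and 1 reversed. Without cells with 3 UMIs of other cell types, 20 of 79 moved and 2 reversed. Without the highest Scrublet scores 13 of 84 moved and 1 reversed. In the duct class alone 15 of 26 list medians moved and 1 reversed, and in the tubule class alone 9 of 29 moved and 1 reversed. Without the mixed cluster 14 of 81 results moved and 4 reversed. The share of nephric cells at E11.5 and E10.5 was 0.494% and 2.19% with at least 4 Pax2 and Pax8 UMIs and 2 of Epcam, and 0.674% and 2.61% without cells with 3 UMIs of other cell types. It was 0.494% at E11.5 without the Runx1 and Notum clusters and 2.64% at E10.5 without the mixed cluster. With the settings above, the duct class share was 9.41% at E11.5 and 37.2% at E10.5, and the tubule class share 63.5% and 33.1%. The duct class share at E11.5 was 1.61% with at most 5% mitochondrial UMIs and 18.2% without the Runx1 and Notum clusters, and at E10.5 it was 29.5% with thinned cells. The tubule class share at E11.5 was 50% under the stricter rule, 20% by clusters, 43.5% with thinned cells and 52.3% without the Runx1 and Notum clusters, and at E10.5 it was 26.4% by clusters. Genes at least 2-fold apart numbered 309 higher and 156 lower with at least 100 UMIs. With the settings above, the median log2 ratio was 2.62 for the genital duct list, 0.73 for the Wnt list and -0.69 for the S phase list. The genital duct median was 1.30 with at most 5% mitochondrial UMIs, 0.88 with at least 100 UMIs and 1.29 in the tubule class. The Wnt median was -0.15 in the duct class and 0.27 without the Runx1 and Notum clusters, and the S phase median was -1.18 in the duct class.

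These reversed. With the settings above, the log2 ratio was 5.87 for Rhox5 and 10.2 for Dppa5a. Rhox5 was at -0.030 under the stricter rule, and Rhox5 and Dppa5a were each at -0.087 without the mixed cluster. These values of Rhox5 and Dppa5a rest on few UMIs, and that of Dppa5a on 0 UMIs set to 3 counts. The log2 duct over tubule ratio of Cdh5 was 6.23 with the settings above. It was -1.23 without the highest Scrublet scores and -1.37 without cells with 3 UMIs of other cell types. The blood median was 2.01 with the settings above, -0.015 without those cells and -1.67 without the mixed cluster. The endothelium median was -1.22 with the settings above, 1.41 in the duct class, 0.15 in the tubule class and 1.59 without the mixed cluster. The cause was not tested. The alternatives without the Runx1 and Notum clusters, the mixed cluster or single cells were chosen after seeing the data. No paired analysis was possible because each stage has 1 library. With 13 duct-like and 17 tubule-like cells at E11.5, depth limits what can be read of genes at low levels.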
